A study of Rattus norvegicus with 22 samples.

Results

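Ifit3, Ifitm3, Slfn2 and Ifi27l2b, a set of 4 genes known to be induced by interferons, were followed in the cerebral cortex of rats 24 h after a penetrating ballistic brain injury (PBBI) or a sham procedure. They are 4 of the 32545 genes counted in these libraries and were chosen by name. The deposited counts carry Ensembl identifiers without names, so each gene was found through supplementary lists of the study that pair identifiers with names. Ifitm3 (ENSRNOG00000015078) and Ifi27l2b (ENSRNOG00000026605) came from its list for injury on the ipsilateral side, Ifit3 (ENSRNOG00000022839) from its list for sleep time, and Slfn2 (ENSRNOG00000037113) from both. The list for injury holds genes that the study itself called between PBBI and sham in these same rats. The ipsilateral comparison of Ifitm3, Slfn2 and Ifi27l2b is therefore not independent evidence of their direction. Nor is any other comparison of these genes that uses the ipsilateral PBBI samples. The list for sleep time was drawn from these same rats too. A relation between Ifit3 and Slfn2 over rats is therefore not independent of that list.

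The rats were adult males, of the strain the labels spell Sprague-Daley. In 6 rats a probe was driven into the right frontal brain and a balloon on it was briefly inflated, which leaves a cavity. Another 5 sham rats underwent the remaining procedures with no probe insertion. All 11 rats, sham rats included, carried implanted electrodes for sleep recording, so the sham group is not an intact brain. Each rat gave 1 cortical sample from the right, injured (ipsilateral) hemisphere and 1 from the left (contralateral) hemisphere, which makes 22 samples in 4 groups. The samples are bulk tissue, and a change in the share of a cell type cannot be told apart from a change of RNA per cell.

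Interferons are cytokines that cells release on sensing foreign or misplaced nucleic acid. Type I interferons bind a receptor of the subunits Ifnar1 and Ifnar2, whose JAK kinases activate transcription factors that, with Irf9, bind interferon-stimulated response elements in promoters, whereas interferon gamma acts through gamma-activated sequences. In the brain, microglia, astrocytes, endothelial cells and incoming leukocytes all respond to interferons. Ifit3 is a member of a family of proteins with tetratricopeptide repeats that bind foreign RNA, Ifitm3 is a membrane protein that blocks the fusion of virus with endosomes, Slfn2 is a Schlafen protein known for keeping T cells and monocytes quiescent, and Ifi27l2b belongs to the IFI27 family of small hydrophobic proteins.

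Promoter sequences were searched for short motifs of the interferon response. RefSeq windows of 300 bases (250 before and 50 after the start of transcription, build GRCr8) were at hand for 3 of the 4 genes, and each is printed 5′ to 3′ on the strand of the gene. The Ifit3 window is chr1:241527076-241527375 on the plus strand, that of Ifitm3 is chr1:205541709-205542008 on the minus strand, and that of Slfn2 is chr10:68450611-68450910 on the plus strand. Capitals mark every match, on either strand, to GAAANNGAA, part of the interferon-stimulated response element and bound by interferon regulatory factors, or to TTCNNNGAA, the core of a gamma-activated sequence.
Ifit3: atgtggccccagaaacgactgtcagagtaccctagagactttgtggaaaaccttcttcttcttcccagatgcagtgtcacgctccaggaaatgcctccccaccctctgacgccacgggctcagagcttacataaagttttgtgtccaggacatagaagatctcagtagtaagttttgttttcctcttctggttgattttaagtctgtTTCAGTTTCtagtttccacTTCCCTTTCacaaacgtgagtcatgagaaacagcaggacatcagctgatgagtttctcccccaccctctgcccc
Ifitm3: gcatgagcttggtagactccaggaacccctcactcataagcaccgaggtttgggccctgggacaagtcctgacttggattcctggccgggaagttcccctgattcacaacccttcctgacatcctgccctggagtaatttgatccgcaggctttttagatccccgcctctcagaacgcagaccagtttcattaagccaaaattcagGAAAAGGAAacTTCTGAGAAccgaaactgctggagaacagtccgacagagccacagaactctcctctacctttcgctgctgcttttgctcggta
Slfn2: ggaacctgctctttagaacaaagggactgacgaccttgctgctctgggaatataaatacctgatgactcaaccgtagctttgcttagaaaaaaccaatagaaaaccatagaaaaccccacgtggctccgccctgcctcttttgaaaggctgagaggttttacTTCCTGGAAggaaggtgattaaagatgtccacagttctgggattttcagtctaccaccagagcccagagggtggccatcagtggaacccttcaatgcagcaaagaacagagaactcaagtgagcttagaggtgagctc
The Ifit3 window held GAAANNGAA at 2 places, both on the opposite strand, beginning at bases 208 and 227 of the window, just before the start. In the Ifitm3 window GAAANNGAA began at base 207 and TTCNNNGAA at base 218, with no overlap between them. The Slfn2 window held only TTCNNNGAA, at base 163. Of all 33469 promoter windows of that length, 9.71% held GAAANNGAA and 8.87% held TTCNNNGAA. These are matches of letters, not sites of binding.

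Total counts per sample lay between 42085341 and 63412426. At that depth the lowest count of any of the 4 genes in any sample was 74, for Ifit3 in a contralateral sham sample, so all 4 were measured well above the limit of detection in all 22 samples. Levels are given as CPM, the count of a gene scaled to the total of its library, after scaling of library sizes by the trimmed mean of M-values (TMM). The ipsilateral library of PBBI rat 85 stood apart from its group. Its mean correlation with the other 5 ipsilateral PBBI samples was 0.835, against 0.933 to 0.943 for those 5, and its TMM factor of 0.706 was the lowest of all 22. The ipsilateral fold changes against sham are given with and without it. The exact tests and the correlations between hemispheres include it.

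Ifitm3 showed the clearest separation of injured from sham cortex. In the ipsilateral hemisphere of PBBI rats it had a lowest value of 20.2 CPM, a median of 35.4 CPM and a highest value of 52.4 CPM, and the 5 ipsilateral sham samples had 4.54, 5.20, 6.90, 8.90 and 13.2 CPM. All 6 PBBI samples were above all 5 sham samples, with rat 85 the lowest of the injured rats. Such a complete separation with PBBI higher was found in 3.5% of all genes tested in this comparison. The mean was 37.6 ± 12.7 CPM (SD, n = 6) in PBBI and 7.75 ± 3.48 CPM (SD, n = 5) in sham. The log2 fold change was 2.28 (standard error 0.34, edgeR quasi-likelihood test, adjusted p = 0.00417), and the two-sided exact permutation test over rats gave p = 0.00433, the smallest it can give. Without rat 85 the log2 fold change was 2.42 (adjusted p = 0.000563).

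On the contralateral side the Ifitm3 groups overlapped. The 6 PBBI samples ranged from 6.29 CPM over a median of 13.6 CPM to 27.1 CPM, and the sham samples had 5.10, 5.26, 7.94, 9.41 and 13.5 CPM. Of the injured rats, 3 lay above all sham rats, and rat 81 stood highest. The log2 fold change was 0.77 (standard error 0.37, edgeR adjusted p = 1.00), and the two-sided exact permutation test gave p = 0.121.

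Slfn2 was also higher on the injured side, with a wide spread among injured rats. Ipsilateral PBBI samples had a lowest value of 10.3 CPM, a median of 19.9 CPM and a highest value of 38.1 CPM, and sham samples had 4.18, 4.68, 9.92, 11.5 and 15.9 CPM. Rats 85 and 81 held the highest levels, and the lowest injured rat, 83, lay among the sham rats, so that 5 of 6 PBBI samples were above all sham samples. The means were 23.1 ± 10.9 CPM (SD, n = 6) and 9.24 ± 4.91 CPM (SD, n = 5). A log2 fold change of 1.32 (standard error 0.43) did not pass the threshold over all genes (edgeR adjusted p = 0.112), while the two-sided exact permutation test of this gene alone gave p = 0.0216. Without rat 85 it was 1.10 (edgeR adjusted p = 0.0902). DESeq2 without a prior gave 1.34 (adjusted p = 0.0333) on the same samples, a fit that called 1702 of 22477 genes.

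In the contralateral hemisphere Slfn2 did not separate the groups. Its PBBI samples lay between 4.44 and 11.0 CPM with a median of 8.78 CPM, and the sham samples had 3.97, 5.41, 8.67, 8.68 and 11.7 CPM. The highest of all contralateral samples was a sham rat, number 84. The log2 fold change of 0.10 (standard error 0.30, edgeR adjusted p = 1.00) was smaller than its error, and its sign turned under weighted voom (-0.27) and without sham rat 82 (-0.071).

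Ifi27l2b was the gene in which a single library weighed most. Ipsilateral PBBI samples had a lowest value of 5.78 CPM, a median of 11.7 CPM and a highest value of 69.8 CPM, the last in rat 85 with 3088 counts. The sham samples had 2.43, 2.76, 4.59, 5.13 and 9.17 CPM. Besides rat 85, which was far above every other sample, 4 injured rats were above all sham rats and rat 90 fell among them. The mean was 20.7 ± 24.3 CPM (SD, n = 6) in PBBI, with an SD between rats above the mean, against 4.82 ± 2.69 CPM (SD, n = 5) in sham. With all rats the log2 fold change was 2.10 (standard error 0.65, edgeR adjusted p = 0.0952), and without rat 85 it was 1.15 (standard error 0.39, edgeR adjusted p = 0.0657). Limma voom with weights on samples gave 1.12 (adjusted p = 0.0284) with all rats, a fit that called 5014 of 16104 genes. The two-sided exact permutation test over all 11 rats gave p = 0.00866.

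On the contralateral side Ifi27l2b, unlike the other 3 genes, separated the groups completely. The PBBI samples ranged from 5.18 to 7.32 CPM with a median of 6.30 CPM, and the sham samples had 1.81, 2.72, 3.01, 3.22 and 4.94 CPM. Every injured rat was above every sham rat, which held for 15 of 15907 genes tested contralaterally (0.0943%). The mean was 6.22 ± 0.82 CPM (SD, n = 6) against 3.14 ± 1.14 CPM (SD, n = 5). For this gene the log2 fold change was 0.98 (standard error 0.25), but no gene passed the threshold over all genes on this side, and its edgeR adjusted p was 1.00. The two-sided exact permutation test gave p = 0.00433, the smallest possible, and without rat 85 the log2 fold change was 0.93. Some markers of other cells also had an unadjusted p under 0.05 on this side (edgeR), as did 366 of all 15907 genes. Among them were 1 of 3 astrocyte markers (Gfap, at 1.57) and 2 of 2 of oligodendrocytes (Opalin at -0.70 and Mal at -0.75). Of microglia and macrophages they were 3 of 10 (Cd14 at 1.48, C1qc at 0.60 and C1qb at 0.49). The astrocyte markers Aldh1l1 and Aldoc were at -0.22 and -0.02. It held for 0 of 4 neutrophil, 0 of 2 T and NK cell, 0 of 1 endothelial and 0 of 1 neuronal markers tested. Summed marker levels were 1316 to 5121 CPM in PBBI against 1413 to 2118 CPM in sham for astrocytes. They were 283 to 548 CPM against 449 to 930 CPM for oligodendrocytes, and 352 to 460 CPM against 257 to 383 CPM for microglia and macrophages. Only markers with a name could be read, and names exist almost only for genes the study called. The part of these cells in the Ifi27l2b difference was not tested.

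Ifit3 showed the smallest difference on the injured side. Ipsilateral PBBI samples had a lowest value of 5.87 CPM, a median of 7.66 CPM and a highest value of 21.6 CPM, and sham samples had 1.97, 3.75, 3.80, 8.13 and 9.41 CPM. Only rats 81 and 85 exceeded all sham rats, and sham rats 84 and 86 lay within the range of the injured group. The means were 10.4 ± 6.07 CPM (SD, n = 6) and 5.41 ± 3.19 CPM (SD, n = 5). Its log2 fold change of 0.94 (standard error 0.47) missed the threshold in edgeR (adjusted p = 0.340), and the two-sided exact permutation test gave p = 0.0693. Without rat 81 it was 0.59, and without rat 85 it was 0.85.

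Contralaterally, Ifit3 had 2.49 to 7.09 CPM (median 5.90 CPM) in PBBI rats and 1.70, 2.14, 2.59, 6.09 and 9.74 CPM in sham rats. Sham rat 84 was the highest of all 11 samples and no PBBI sample lay above it. The log2 fold change was 0.26 (standard error 0.44, edgeR adjusted p = 1.00), and -0.45 under weighted voom. The two-sided exact permutation test gave p = 0.329.

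**Figure D1:**
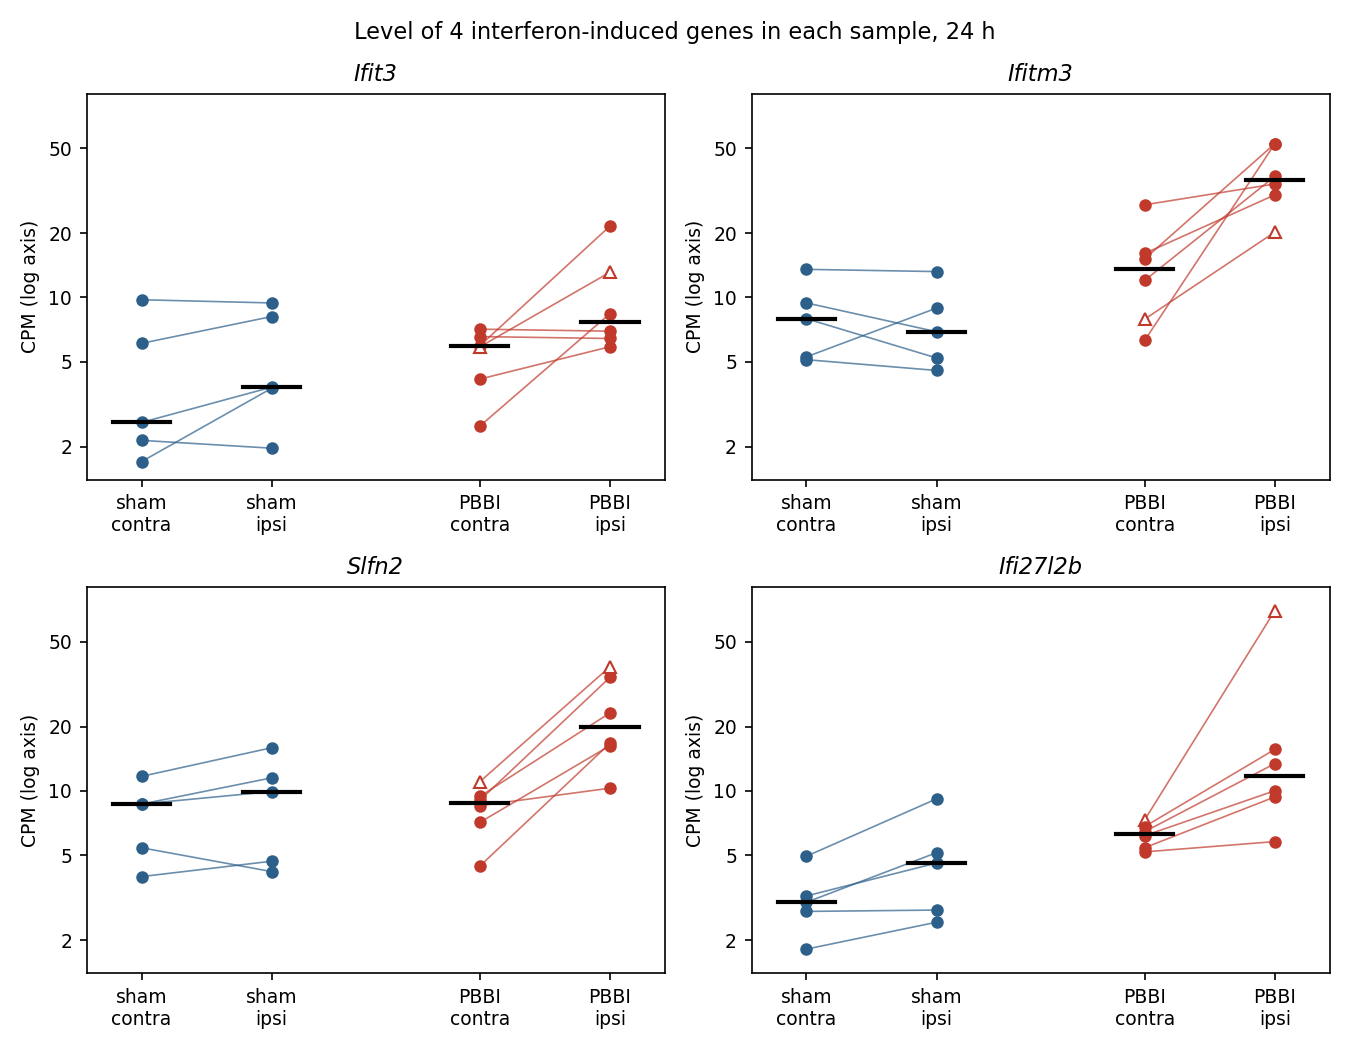
CPM (log axis) of each of the 4 genes in each of the 22 samples, with sham in blue and PBBI in red, lines joining the hemispheres of the same rat, black bars at group medians and open triangles for rat 85. Ifitm3 in ipsilateral PBBI samples, from 20.2 to 52.4 CPM, and Ifi27l2b in contralateral PBBI samples, from 5.18 to 7.32 CPM, lie wholly above their sham groups.

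Of the set as a whole, 1 of the 4 genes (Ifitm3) was called higher ipsilaterally, where 4.68% of all 16104 genes tested were called and 4.09% were called higher. Without rat 85 the count was also 1, with 2186 of 15978 genes called. DESeq2, with or without its prior, and a fit over all 22 samples each called 3 of them, with Slfn2 and Ifi27l2b added. Over all genes DESeq2 called 1680 of 22477 with its prior and 1702 of 22477 without it. The fit over all 22 samples called 1655 of 16587. Weighted voom called 2 of the 4 and 5014 of 16104 genes. On the contralateral side edgeR called none of the 4 and 0% of 15907 genes, although 366 genes had an unadjusted p under 0.05, DESeq2 without a prior called 3 and weighted voom called 1. None of these few was one of the 4 genes.

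Whether the injury effect differed between hemispheres was tested by the interaction of treatment and hemisphere. The difference of log2 fold changes, ipsilateral minus contralateral, was 1.51 for Ifitm3 (standard error 0.51), 1.22 for Slfn2 (0.53), 1.12 for Ifi27l2b (0.69) and 0.68 for Ifit3 (0.67). Without rat 85 the value of Ifi27l2b was 0.22. None passed the threshold when the samples were taken as unpaired (0.326% of 16587 genes did; the smallest edgeR adjusted p of the 4 was 0.237). Since both samples of a number come from the same rat, the rat was also entered as a block. In the paired fit 4.27% of genes were called and Ifitm3 and Slfn2 were among them, at 1.60 (standard error 0.42, edgeR adjusted p = 0.0499) and 1.22 (standard error 0.30, edgeR adjusted p = 0.0408). The values for Ifi27l2b and Ifit3 were 0.63 (edgeR adjusted p = 0.493; 0.25 without rat 85) and 0.49 (edgeR adjusted p = 0.567). Both calls were close to the threshold. Each was lost when any single sham rat or PBBI rat 88, 90 or 96 was left out. The call of Slfn2 was also lost without rat 81, and both were kept without rat 85. The interaction contains the ipsilateral difference from which the study's list for injury was drawn. For Ifitm3, Slfn2 and Ifi27l2b it is therefore not independent of that list.

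Within injured rats the hemispheres could be compared directly. The ipsilateral level exceeded the contralateral level in 6 of 6 PBBI rats for Ifitm3, Slfn2 and Ifi27l2b, and in 4 of 6 for Ifit3; 10.7% of genes were higher ipsilaterally in every PBBI rat. For Ifitm3 the ratio of ipsilateral to contralateral CPM ranged from 1.25 in rat 81 to 8.33 in rat 90. The Slfn2 ratio lay between 1.21 in rat 83 and 3.76 in rat 81, that of Ifi27l2b between 1.12 in rat 90 and 9.54 in rat 85, and that of Ifit3 between 0.978 in rat 83 and 3.63 in rat 81. The rat with the largest ratio was thus not the same for every gene. The two-sided exact sign-flip test gave p = 0.0313 for Ifitm3, Slfn2 and Ifi27l2b, the smallest that 6 rats allow, and p = 0.125 for Ifit3.

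Across all genes, edgeR called 3.56% of 15973 between the hemispheres of PBBI rats, and 10.3% with the rat as a block. Of the 4 genes 2 were called either way with all rats. Slfn2 had a log2 difference of 1.50 (standard error 0.33, edgeR adjusted p = 0.0283) and Ifitm3 one of 1.42 (standard error 0.34, edgeR adjusted p = 0.0398). Ifi27l2b was at 1.77 (edgeR adjusted p = 0.0886), and at 0.87 (edgeR adjusted p = 0.0518) without rat 85, and Ifit3 was at 0.97 (edgeR adjusted p = 0.171). With the block and without rat 85 Ifi27l2b was called too, at 0.80 (edgeR adjusted p = 0.0161), and so were 3356 of all genes. Ifi27l2b was also called by DESeq2 without a prior (adjusted p = 0.0127), weighted voom (adjusted p = 0.0453) and the fit of all 22 samples (adjusted p = 0.0258). These fits called 1612 of 22124, 3695 of 15973 and 1354 of 16587 genes in turn. The unpaired call of Ifitm3 was lost without rat 83, 88, 90 or 96, and that of Slfn2 without rat 81, 88, 90 or 96. With the block, both were lost without rat 88, 90 or 96. This comparison shares the ipsilateral PBBI samples with that against sham, and the values stand side by side as 2 readings of the same samples.

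In sham rats the hemispheres differed little. Ifi27l2b was higher ipsilaterally in 5 of 5 sham rats, by ratios of 1.01 to 1.86, which was so for 1.83% of genes, while Ifitm3 was higher in 1 of 5, Slfn2 in 4 of 5 and Ifit3 in 3 of 5. With 5 rats the two-sided exact sign-flip test cannot fall below p = 0.0625, the value Ifi27l2b had. edgeR called 0% of 15747 genes with or without the block (47 and 238 genes had an unadjusted p under 0.05, and neither DESeq2 nor weighted voom called any), and the 4 log2 differences lay between -0.10 for Ifitm3 and 0.62 for Ifi27l2b. As a further check, chosen after the values were seen, the within-rat differences of PBBI and sham rats were compared by a two-sided exact permutation test. It gave p = 0.00866 for Ifitm3, 0.0130 for Slfn2, 0.169 for Ifi27l2b and 0.234 for Ifit3 (exact, 6 against 5 rats). For Ifitm3, Slfn2 and Ifi27l2b this check is not independent of the list for injury, which was drawn from the same ipsilateral samples.

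**Figure D2:**
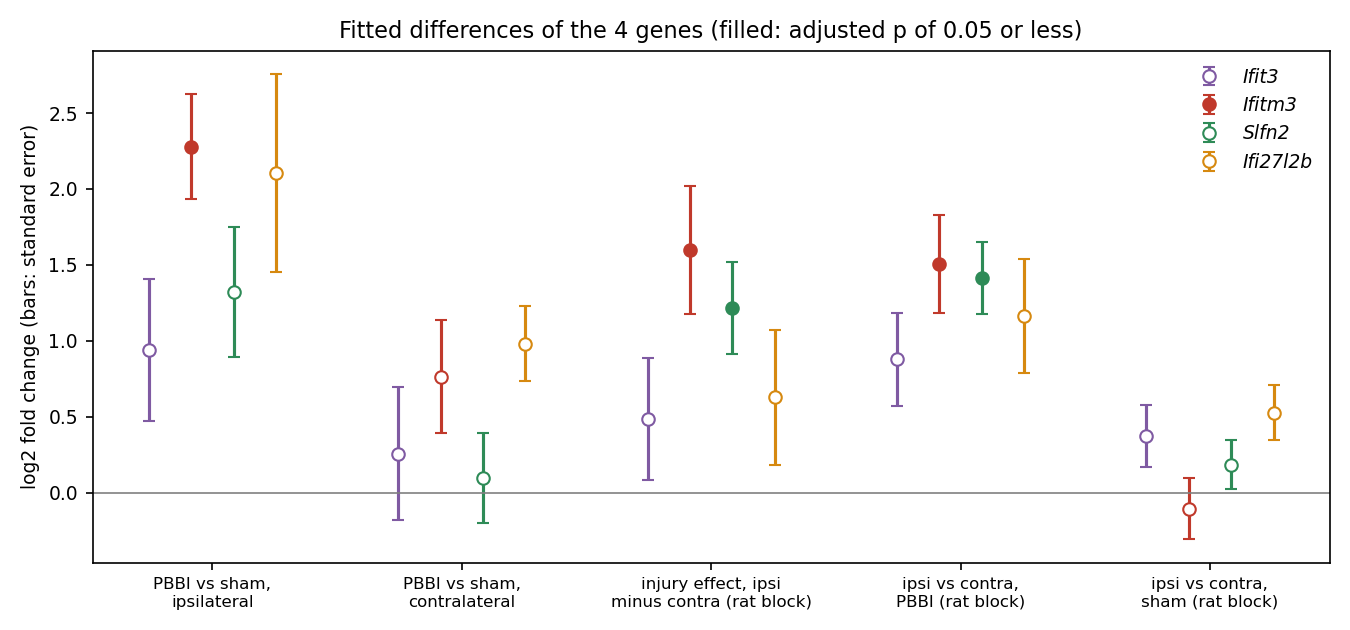
Fitted log2 fold changes of the 4 genes with standard errors in 5 comparisons, the comparisons of hemispheres with the rat as a block; filled points have an adjusted p of 0.05 or less. Ifitm3 is filled in the ipsilateral comparison (2.28), and Ifitm3 and Slfn2 are filled in the interaction (1.60 and 1.22) and between the hemispheres of PBBI rats (1.51 and 1.41), while no point is filled contralaterally or in sham rats.

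Per length of transcript, the genes kept the same order in both ipsilateral groups. In CPM per kilobase of counted gene length, ipsilateral sham samples had 11.1 ± 4.97 for Ifitm3, 10.7 ± 5.97 for Ifi27l2b, 5.21 ± 2.77 for Slfn2 and 2.66 ± 1.56 for Ifit3 (SD, n = 5). Ipsilateral PBBI samples had 53.8 ± 18.2 for Ifitm3, 45.8 ± 53.9 for Ifi27l2b, 13.0 ± 6.16 for Slfn2 and 5.10 ± 2.98 for Ifit3 (SD, n = 6). In sham the means of Ifitm3 and Ifi27l2b lay closer to each other than their SDs. In PBBI that held only with rat 85, without which Ifitm3 was at 58.8 ± 15.04 and Ifi27l2b at 24.0 ± 8.45 (SD, n = 5), a gap above both SDs. Contralaterally the order was the same, with 20.1 ± 10.7, 13.8 ± 1.81, 4.66 ± 1.28 and 2.63 ± 0.842 in PBBI (SD, n = 6) and 11.8 ± 4.95, 6.96 ± 2.53, 4.33 ± 1.72 and 2.19 ± 1.68 in sham (SD, n = 5). The counted lengths are 700 bases for Ifitm3, 451 for Ifi27l2b, 1772 for Slfn2 and 2036 for Ifit3, so Ifi27l2b is the shortest of the 4.

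The 4 genes did not vary together as a single block. With each sample's log2 CPM taken as its deviation from its group mean, over all 22 samples, Ifit3 and Slfn2 were the most alike pair (r = 0.732, and 0.732 over the 20 samples without rat 85). Slfn2 and Ifi27l2b had r = 0.587 (0.529 without rat 85), and Ifit3 and Ifi27l2b r = 0.448 (0.504). Ifitm3 was least like the others, and its r was -0.05 with Ifit3, 0.174 with Slfn2 and -0.389 with Ifi27l2b, and 0.0281, 0.406 and -0.190 without rat 85. These are descriptions, since samples of a rat share that rat and each library shares its depth and scaling. Ifit3 and Slfn2 are also both in the study's list for sleep time in these same rats, so their likeness is not independent of that list.

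Over the 6 ipsilateral PBBI rats, none of the 6 pairs passed a permutation test after Benjamini-Hochberg adjustment over the pairs. The strongest was a negative relation between Ifitm3 and Ifi27l2b (Pearson's r = -0.874, exact permutation p = 0.0278, adjusted 0.167; Spearman's rho = -0.714, exact p = 0.136, adjusted 0.525). Rat 85 held the lowest Ifitm3 and the highest Ifi27l2b, and without the rats farthest from the median of Ifitm3, 85 and 88, r was -0.706 over 4 rats. Ifit3 and Slfn2 had r = 0.740 (exact p = 0.0931, adjusted 0.279; rho = 0.657, exact p = 0.175, adjusted 0.525), but r = -0.156 over the 4 rats left without rats 81 and 85, so that this relation rests on those rats. For the other 4 pairs r lay between -0.423 and 0.621.

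Contralaterally the groups overlapped for Ifit3, Ifitm3 and Slfn2, so that all 11 rats entered the same correlation. Ifit3 and Slfn2 again had the highest r, 0.708 (permutation test, p = 0.0153, adjusted 0.0919 over 6 pairs; rho = 0.636, p = 0.0402, adjusted 0.241). Without sham rats 91 and 94, the farthest from the median of Ifit3, r rose to 0.945 over 9 rats (exact permutation p = 0.000854, adjusted 0.00513). Rat 94 had the lowest Ifit3 of all 11 beside a Slfn2 level in the middle of its group. Since Ifit3 and Slfn2 are both in the list for sleep time, this relation is not independent of that list either. Ifitm3 had r = 0.277 with Ifit3 and 0.475 with Slfn2, neither past the test (permutation p = 0.409 and 0.140). For Ifi27l2b, whose groups did not overlap, only the 6 PBBI rats were used, and its r with the other 3 genes was between 0.132 and 0.617 with no adjusted p below 0.372 (exact permutation).

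**Figure D3:**
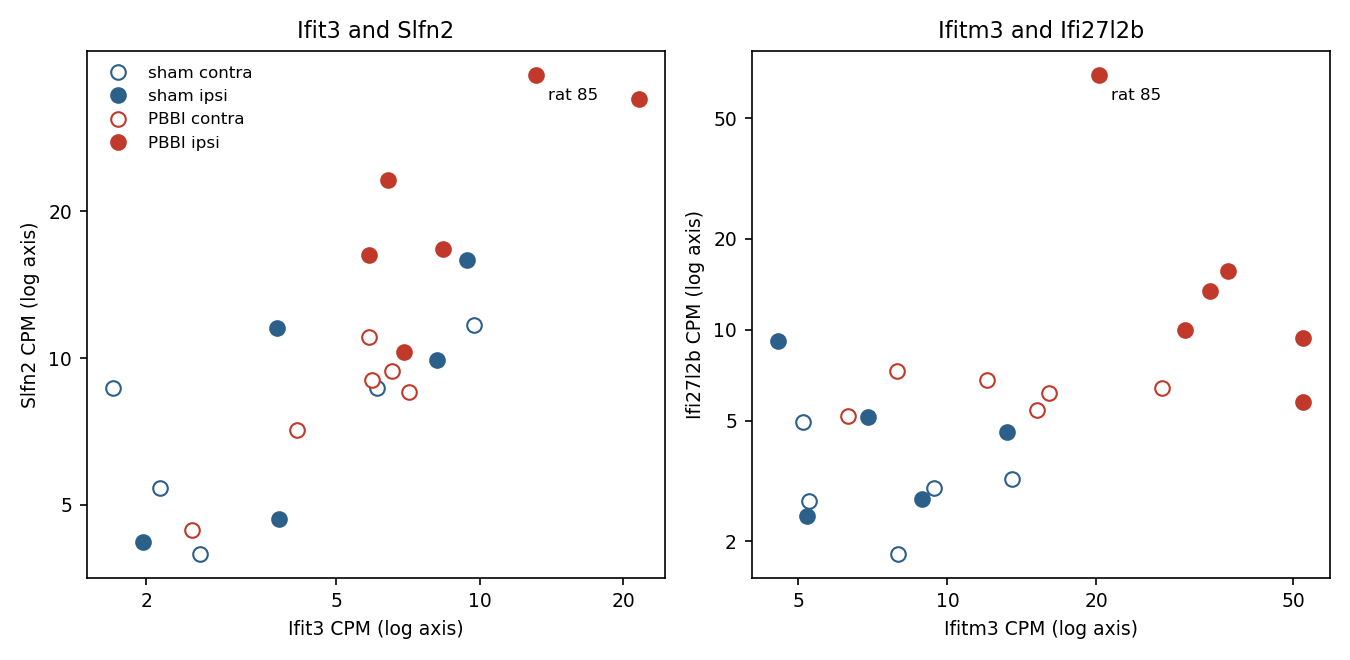
Levels of Ifit3 against Slfn2 (left) and of Ifitm3 against Ifi27l2b (right) in CPM on log axes, each point a sample, PBBI red and sham blue, ipsilateral filled and contralateral open. Ifit3 and Slfn2 have r = 0.732 on deviations from group means, pooled over all 22 samples. In ipsilateral PBBI rats alone their relation rests on rats 81 and 85 (r = -0.156 without them). Ipsilateral PBBI rat 85 combines the highest Ifi27l2b, 69.8 CPM, with the lowest Ifitm3 of its group, 20.2 CPM.

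Between the hemispheres of the same injured rat, Ifi27l2b was the gene that kept its order. Its contralateral and ipsilateral log2 CPM over 6 PBBI rats had r = 0.864 (exact permutation p = 0.00417, adjusted 0.0167 over 4 genes) and the rank order was identical (rho = 1.00, exact p = 0.00278, adjusted 0.0111). Without rats 88 and 90 r was 0.932 over 4 rats (exact permutation p = 0.0417, adjusted 0.167 over 4 genes). A relation of this size is common here: over all 16587 genes the median r between hemispheres was 0.694, and 25.1% of genes had an r at least that of Ifi27l2b. The other 3 genes lay below that median, with r = 0.489 for Slfn2 (exact p = 0.332), 0.157 for Ifit3 (exact p = 0.772) and -0.01 for Ifitm3 (exact p = 0.988). For Ifitm3, 89.9% of genes had a higher or equal r. Rat 85, the highest of the PBBI rats in Ifi27l2b on both sides, is in all of these values, and none was computed without rat 85 alone. Rat 81 had the highest contralateral Ifitm3 and rat 90 the lowest, yet ipsilaterally rat 90, at 52.4 CPM, was above rat 81, at 33.9 CPM.

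In sham rats the highest level of a gene tended to fall in the same rat on both sides, and not in the same rat for each gene. Rat 84 was highest in Ifit3 (9.74 CPM contralaterally and 9.41 CPM ipsilaterally) and in Slfn2 (11.7 and 15.9 CPM). Rat 94 held the highest Ifitm3, with 13.5 and 13.2 CPM. Ifi27l2b was highest in rat 86, at 4.94 and 9.17 CPM, and lowest in rat 91, at 1.81 and 2.43 CPM. With 5 rats no correlation was computed.

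The genes with a name whose deviations were most like each of the 4 were then looked up among 16586 others, over 22 samples. Closest to Ifit3 were Bcl2a1 (r = 0.803), a survival factor of leukocytes, RGD1565785 (0.798) and Cd86 (0.771), a costimulatory molecule of antigen-presenting cells. For Slfn2 they were Srgn (0.882), the proteoglycan of leukocyte granules, the stress transcription factor Atf3 (0.859) and Ripk3 (0.859), a kinase of necroptosis. Ifitm3 was most like Sp140 (0.815), Angptl2 (0.813) and Plp2 (0.803). Ifi27l2b was most like Gmfg (0.923), Tyrobp (0.891), the adaptor of microglial and myeloid receptors, and Cyba (0.883), a subunit of the phagocyte oxidase. Above the first named gene stood 1, 0, 1 and 89 genes without a name for Ifit3, Slfn2, Ifitm3 and Ifi27l2b in turn. For Ifi27l2b, 362 genes without a name stood above Tyrobp and 451 above Cyba. An r above 0.5 with Ifi27l2b was found in 26.5% of all genes, so its likeness was spread widely. Names exist here almost only for genes the study called, so the named neighbours are drawn from that set. Without rat 85 the first named gene was the same for Ifit3, Ifitm3 and Ifi27l2b, and was Ripk3 for Slfn2.

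A wider list of 101 genes of the interferon response gave the surroundings of the 4. Only 28 of the 101 (27.7%) had a name in the supplementary lists, nearly all because the study had called them in these rats, so the count describes those 28 and is not independent evidence of direction. Ipsilaterally 16 of the 28 were called higher and 0 lower, against 4.09% of all genes called higher, with a median log2 fold change of 1.30 against -0.02 over all genes tested. Of the 24 besides the 4 genes, 15 were called higher, and 17 without rat 85. Contralaterally 0 of 27 tested were called in edgeR, 4 had an unadjusted p under 0.05, and the median was 0.28 against -0.01 over all genes. Between the hemispheres of PBBI rats 9 of 27 were called higher, against 2.97% of all genes. In the unpaired interaction edgeR called 0 of the 28, with 19 at an unadjusted p under 0.05 (1641 of 16587 over all genes) and a median of 0.89. Between the hemispheres of sham rats it called 0 of 27, of which 18 were positive, with a median of 0.03.

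By role, the receptor side was represented by Ifnar2, at a log2 fold change of 0.44 ipsilaterally (edgeR adjusted p = 0.265), and by the kinase Jak2, which rose by 0.98 (edgeR adjusted p = 0.0347). The transcription factors Irf9 and Irf1 rose by 1.10 and 1.12 (edgeR adjusted p = 0.00856 and 0.0433). The feedback inhibitor Socs1 was at 1.47 (edgeR adjusted p = 0.120). Among close relatives of the 4 genes, Ifitm1 rose by 1.83 (edgeR adjusted p = 0.0164) and Slfn3 by 2.76 (edgeR adjusted p = 0.0249), whereas Slfn13 at 1.78 (edgeR adjusted p = 0.0512) and Ifit1lb at 1.32 (edgeR adjusted p = 0.129) did not pass. Where such relatives share sequence, the counting may have split or dropped reads between them, and their separate values are uncertain to that degree.

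Further along the pathway, only 7 of 39 listed other antiviral effectors had a name, and names exist almost only for genes the study called. Of these 7, 4 were called higher, against 4.09% of all genes. They were Mnda, a nuclear protein of myeloid cells, at 3.68, the zinc finger antiviral protein Zc3hav1 at 1.28, Parp9 at 1.21 and Sp110 at 1.11 (edgeR adjusted p between 0.00769 and 0.0252). Oas3, an oligoadenylate synthetase, was at 2.54, not past the threshold (edgeR adjusted p = 0.0899). Xaf1 was the exception in sign, at -0.98 (edgeR adjusted p = 0.141). The DNA sensor cGAS, listed as Mb21d1, rose by 2.53 (edgeR adjusted p = 0.0351) and the guanylate-binding protein Gbp2 by 1.72 (edgeR adjusted p = 0.00466). Of 13 listed genes of antigen processing 6 had a name. Of these 6, 4 were called higher, Ifi30 at 1.50, Psmb8 at 1.38, Tap1 at 1.29 and Erap1 at 0.81, while Psmb9 at 1.20 and Tapbp at 0.68 were not.

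**Figure D4:**
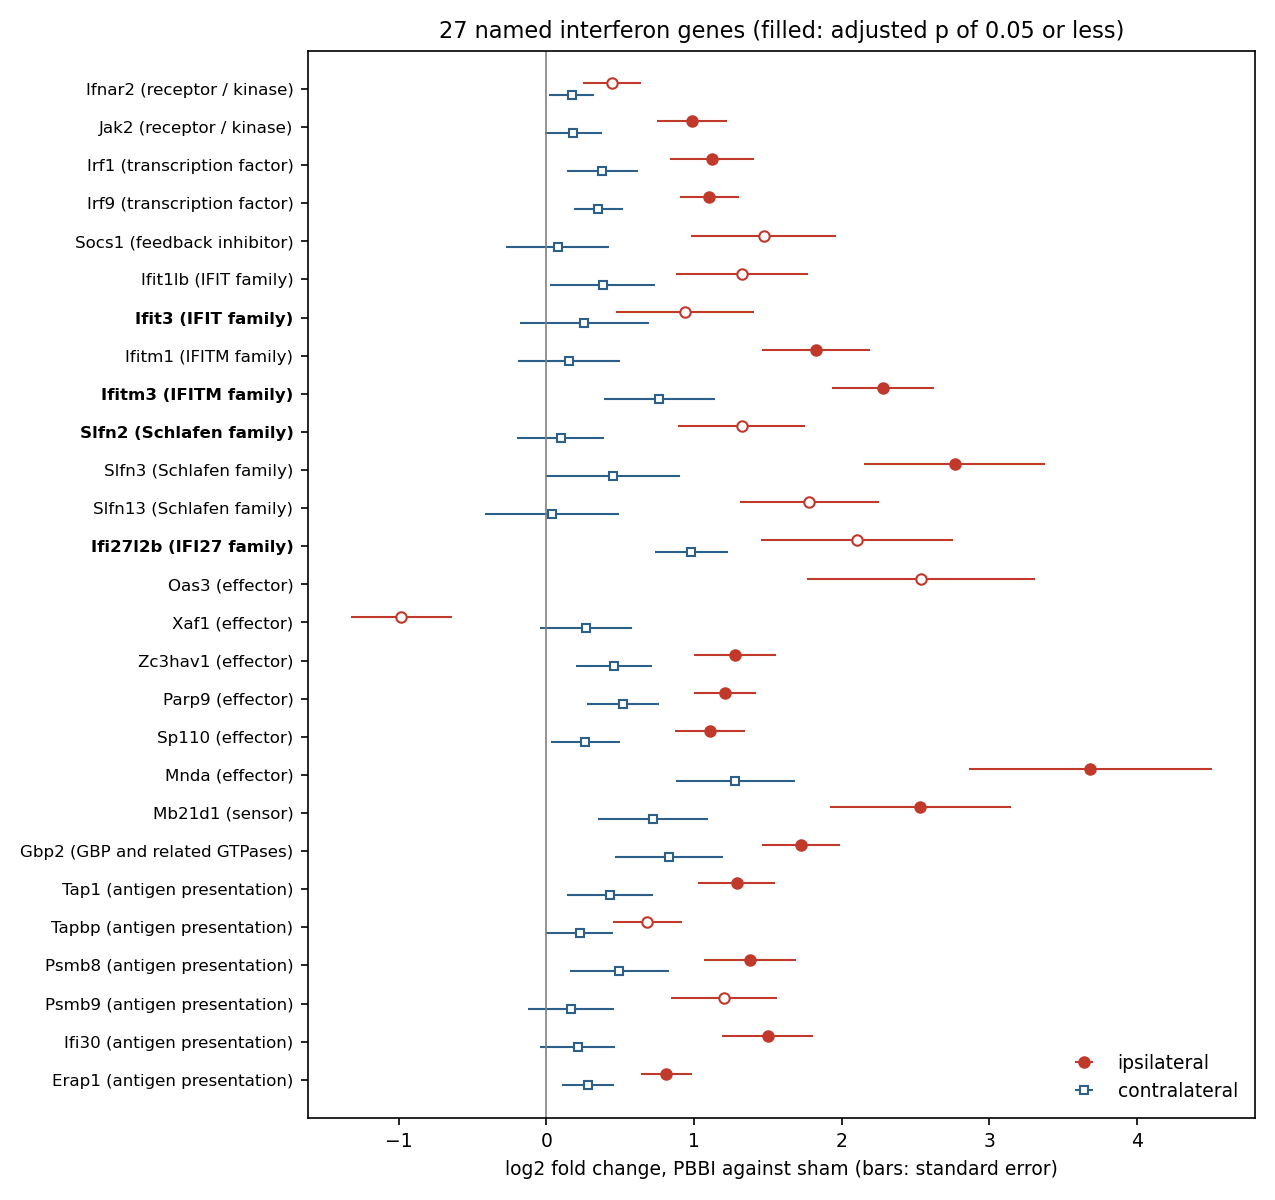
Log2 fold change of PBBI against sham, with standard errors, for 27 named genes of the interferon list, ipsilateral in red and contralateral in blue, filled where the adjusted p is 0.05 or less and with the 4 genes in bold. Ipsilaterally 26 of the 27 lie above 0, with Xaf1 at -0.98 the exception, and 16 are filled, while contralaterally all 26 plotted lie above 0 and none is filled.

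Of the 4 genes, Ifitm3 followed the other named interferon genes most closely. On deviations from group means over 22 samples its median r with the other 24 was 0.447, against 0.0627 with all genes, and 11 of the 24 had an r above 0.5, against 4.91% of all genes. The highest was Gbp2, at 0.788. For Slfn2 4 of the 24 had an r above 0.5, against 15.8% of all genes (7 and 11.1% without rat 85). For Ifit3 it was 1 of the 24, against 6.7% of all genes, and for Ifi27l2b 1 of the 24, against 26.5%. For Slfn2 the median was 0.188 (all genes -0.03), for Ifit3 0.132 (all genes -0.01) and for Ifi27l2b -0.01 (all genes -0.07), and the highest was Psmb9 at 0.698 for Slfn2, Ifitm1 at 0.650 for Ifit3 and Psmb9 at 0.751 for Ifi27l2b. Without rat 85 the medians were 0.473 for Ifitm3, 0.305 for Slfn2, 0.181 for Ifit3 and 0.00148 for Ifi27l2b. Nearly all of the 24 have a name because the study called them in these rats, and Ifitm3 is in its list for injury too. They were compared with all genes and not with other genes of that list. Whether the likeness is particular to interferon genes was not tested.

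Named markers of other cells also differed ipsilaterally, but names exist almost only for genes the study called in these rats. All 24 named markers tested had an unadjusted p under 0.05 in edgeR. The counts describe the named markers and are not independent evidence of direction. For microglia and macrophages 11 of 15 listed markers had a name, and of 10 tested 9 were positive and 6 called higher, with Tmem119, a marker of resting microglia, at -0.92. Their summed level was 552 to 1370 CPM in ipsilateral PBBI samples and 216 to 457 CPM in ipsilateral sham samples. This sum was lowest in rat 83 and highest in rat 81 among injured rats. Among the 4 genes, only the lowest Slfn2 (rat 83) and the highest Ifit3 (rat 81) fell in the matching rat. Neutrophil markers (6 of 6 named, 1 of 4 tested called) summed to 20.0 to 247 CPM against 9.65 to 54.1 CPM, again with rat 83 lowest and rat 81 highest. Elane was at 0 in all ipsilateral sham samples and at only 0 to 0.486 CPM in ipsilateral PBBI samples, and was not tested. T and NK cell markers (5 of 8 named, 2 of 3 tested called) summed to 3.25 to 10.8 CPM against 0.313 to 1.93 CPM.

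Of the neuronal markers only Mapt had a name (1 of 8 named). It was at 207 to 312 CPM in ipsilateral PBBI and 297 to 461 CPM in ipsilateral sham samples. The groups overlapped and Mapt was not called (log2 fold change -0.47, edgeR adjusted p = 0.225). The astrocyte markers (3 of 7 named) summed to 2347 to 7258 CPM against 1138 to 2112 CPM, with Gfap called higher and Aldh1l1 and Aldoc called lower. The endothelial gene Vwf (1 of 5 named) was at 23.3 to 49.4 CPM against 10.4 to 19.7 CPM, and the oligodendrocyte markers (2 of 6 named) summed to 135 to 410 CPM against 391 to 812 CPM. The part of any of these cells in the levels of the 4 genes was not tested.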

How the data were processed

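Cortical RNA of 22 samples (6 PBBI and 5 sham rats, both hemispheres) was analysed. Per the paper and the submitters' processing notes, the authors made stranded libraries after removing ribosomal RNA, aligned paired reads with STAR 2.4.2a to Rnor_6.0 and counted genes with featureCounts 1.4.3-p1. The authors deposited raw counts with no normalization. How strand or reads with several alignments were treated is not given in the sources used here, and no molecular identifiers are named. Total counts were between 42085341 and 63412426 per sample. Samples were grouped by the treatment, hemisphere and animal number of the labels; a column lacking the last part of its title was matched to the sham rat 82 sample it names.

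Gene names were taken from the supplementary lists for ipsilateral injury and for sleep time, in which 1818 identifiers have one. The other columns of these lists hold the authors' own comparisons and were not used. The 4 genes, the interferon and marker lists, the tests and the rule for named genes were chosen with earlier results of these data known. That rule names the 4 genes, the interferon genes called in any comparison or belonging to the receptor, the transcription factors or the families of the 4, and the 3 named genes most like each of the 4. Socs1, Oas3, Xaf1, Psmb9 and Tapbp were named besides, after their values were seen, to complete their groups. Some genes of the lists are not reported here by name.

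Counts were tested with the quasi-likelihood test of edgeR 4.0.16 (R 4.3.3), with filterByExpr, TMM scaling, Benjamini-Hochberg adjustment over all genes tested and a threshold of 0.05. The standard error was the log2 fold change divided by the square root of F. For levels on the log2 scale, 2 was the prior count. The tests were repeated with DESeq2 1.42.0, with its prior or none, with DESeq2 size factors in edgeR, with all genes kept, with only genes of 10 or more counts throughout, with sample-weighted voom (limma 3.58.1), with a joint fit of all 22 samples, with the rat as a block and with each rat left out. Correlations were repeated with a prior count of 0.5, with Spearman's rho and without the 2 rats farthest from the median. Leaving out each rat under the block, the permutation test of within-rat differences, the interferon list, the likeness and the levels per kilobase without rat 85, and the check for outlying samples on log2 CPM were added after seeing the data. Permutation tests were run in Python with scipy, exact below 10 rats and otherwise with 100000 resamples, two-sided. Scripts were tested on simulated data.

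Samples of the same number come from the same rat by the labels. Deviations from group means correlated between the hemispheres of a rat at 0.246 to 0.758 in the 11 rats, so the blocked fit is given beside the unpaired fit. Rats were operated on in weekly groups balanced between treatments, and the week of an individual rat was not used here, so that no batch term was fitted. Promoter windows came from the RefSeq table of build GRCr8. No coordinates of Rnor_6.0 were used here.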

Additional observations from a re-analysis of the deposited data

Results flagged for a closer look

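In ipsilateral PBBI samples, Ifi27l2b of rat 85, at 69.8 CPM, lay far from the other 5 samples of its group: its gap to the nearest was 0.846 of the range of the group, above Dixon's critical value of 0.625. On log2 CPM the ratio was 0.601, below that value (a scale tried after seeing the data). On CPM it was the only such value among 16 groups of samples examined (4 genes in 4 groups), and chance marks about 1 group in 20. The same library stood apart across all genes.

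With the rat as a block, the injury effect passed the test of a difference between hemispheres for Ifitm3, by 1.60 on the log2 scale (edgeR adjusted p = 0.0499), and for Slfn2, by 1.22 (adjusted p = 0.0408). Ipsilateral exceeded contralateral levels in 6 of 6 PBBI rats for both, against 1 of 5 and 4 of 5 sham rats, and 10.7% of all genes did so in every PBBI rat. The unpaired fit called neither gene (edgeR adjusted p = 0.237 and 0.424). Both genes are in the study's list for injury, drawn from the same ipsilateral samples, so these tests are not independent of that list. When each of the 11 rats was left out in turn, the blocked call held in 3 fits for Ifitm3 and in 2 for Slfn2.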

How the results depend on the processing

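Over all alternatives, 363 refitted fold changes of the 4 genes kept their direction and their side of the threshold, 14 lost a call, 21 gained one and 6 turned sign; the causes were not tested. Ipsilaterally DESeq2 without a prior, DESeq2 with its normal prior and the fit of all 22 samples each called 3 of the 4 genes (1702, 1680 and 1655 of all genes, against 753), and weighted voom called 2 (5014 of all genes). Leaving out each rat gave 316 to 2186 calls over all genes, the lowest without sham rat 91 and the highest without PBBI rat 85, and 1 of the 4 genes each time. Contralaterally DESeq2 without a prior called 3 genes, weighted voom 1, and leaving out each rat 0 to 1.

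The rat as a block raised the calls of the interaction from 54 to 708 over all genes and from 0 to 2 of the 4, and those between the hemispheres of PBBI rats to 1646 over all genes (10.3%, against 3.56%), with 2 of the 4 either way. It changed no other count of calls, the sham count being 0 with and without it. For the interaction DESeq2 without a prior called 357 genes, and weighted voom 1663 with 1 of the 4; leaving out each rat gave 0 to 255. With the block, calls were 192, 201, 296, 230 and 430 without sham rats 82, 84, 86, 91 and 94, and 453, 1149, 1358, 309, 264 and 338 without PBBI rats 81, 83, 85, 88, 90 and 96, of which 1, 2 and 2 of the 4 genes without rats 81, 83 and 85 and 0 otherwise. Between the hemispheres of PBBI rats DESeq2 without a prior called 1612, weighted voom 3695 and the fit of all 22 samples 1354, and leaving out each rat gave 1 (without rat 88) to 1149 (without rat 85), with 0 to 2 of the 4. With the block, this count was 1817, 3356, 268, 263 and 272 without rats 83, 85, 88, 90 and 96, 0 of the 4 were called without rats 88, 90 or 96, and 3 without rat 85. Without the block, DESeq2 without a prior, weighted voom and the fit of all 22 samples each called 3 of the 4 here.

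Signs turned only near 0 or under voom. Contralaterally weighted voom gave -0.45 for Ifit3 and -0.27 for Slfn2, and leaving out each rat gave -0.071 to 0.32 for Slfn2. Between the hemispheres of sham rats Ifitm3 was at -0.27 to 0.00087 with each rat left out, and at 0.0034 with the block and without rat 91.

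Of the 16 correlations, leaving out the 2 rats farthest from the median turned or moved most. Ipsilaterally r became 0.371 for Ifit3 and Ifitm3, -0.156 for Ifit3 and Slfn2, -0.947 for Ifit3 and Ifi27l2b and 0.0994 for Ifitm3 and Slfn2. Contralaterally it became 0.945 for Ifit3 and Slfn2, now past the threshold, and -0.611, -0.838 and -0.780 for Ifi27l2b with Ifit3, Ifitm3 and Slfn2 (rho -0.0286 with Ifit3). Between hemispheres it became -0.827 for Ifit3 (rho -0.0286), 0.747 for Ifitm3 and 0.932 for Ifi27l2b, the last no longer past the threshold with 4 rats.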
